A study of Mus musculus with 15 samples.

Results

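The NF-κB module of spleen was followed after lethal irradiation, with or without a burn and with or without vesicles from mesenchymal stem cells. The 10 genes were chosen by symbol as the subunits *Nfkb1*, *Nfkb2*, *Rela* and *Relb*, the regulators *Nfkbia*, *Tnfaip3* and *Bcl3*, and the IκB kinase genes *Chuk*, *Ikbkb* and *Ikbkg*. All 10 were present among the 561 genes of the nCounter Mouse Immunology Panel, which counts mRNA molecules through colour-coded barcodes without amplification, and all 10 were among the 426 genes with enough counts to be tested. Spleens came from female C57BL/6J mice aged 6 to 8 weeks. The samples form 5 groups of 3. Sham mice had no injury, WBIR mice received 9 Gy of whole-body ionizing radiation, and RCI mice received 9 Gy together with a burn over 20% of the body surface. For the burn model the study's methods also describe anaesthesia, shaving, morphine and fluid, with Sham mice handled alike but neither burned nor irradiated. None of these is described for irradiation alone, so they cannot be told apart from the injuries when WBIR is compared with RCI or Sham. The WBIR+MSC-EVs and RCI+MSC-EVs groups were given extracellular vesicles (EVs) of mouse bone marrow mesenchymal stem cells intravenously 72 hours after injury, with spleens collected 48 hours later. The labels name PBS as vehicle only for untreated RCI, whereas the study's text gives saline to untreated and Sham mice. The sources do not settle whether the 3 samples of a group are 3 mice, so p-values measure the spread between these samples, which may be technical.

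NF-κB is a family of dimeric transcription factors that drive inflammatory and survival genes in lymphocytes and myeloid cells. In resting cells IκB proteins hold the dimers in the cytoplasm, and an IκB kinase complex releases them by marking IκB for degradation (the canonical route, mainly RelA with p50), while a slower non-canonical route works through processing of p100 to p52 and acts mainly with RelB. Several genes of the system, among them those of IκBα, A20, p100 and RelB, are themselves NF-κB targets in many cells, which gives the pathway its feedback loops.

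RefSeq promoter windows of the mouse assembly GRCm38.p6, each reaching from 250 bases before to 50 bases after an annotated start, were matched to 7 of the 10 genes (13 windows). The 10-letter κB consensus, searched on both strands, was found in 6 of these windows, which belong to the 4 genes *Nfkbia*, *Tnfaip3*, *Nfkb2* and *Bcl3*, compared with 8.46% of all 32851 windows. One window of each of these 4 genes is printed 5′ to 3′ on the strand of the gene, because these are the members with a match. Capitals mark the stretches that match, in which neighbouring or overlapping matches run together. A match in a window describes the letters and does not show binding.
*Nfkbia*, chr12:55492598-55492897, minus strand: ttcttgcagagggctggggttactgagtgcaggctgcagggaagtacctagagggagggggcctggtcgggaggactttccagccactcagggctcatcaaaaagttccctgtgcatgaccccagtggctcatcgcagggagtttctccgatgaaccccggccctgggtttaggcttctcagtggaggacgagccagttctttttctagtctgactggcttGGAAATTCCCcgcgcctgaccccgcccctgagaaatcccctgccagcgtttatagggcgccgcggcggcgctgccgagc
*Tnfaip3*, chr10:19015361-19015660, minus strand: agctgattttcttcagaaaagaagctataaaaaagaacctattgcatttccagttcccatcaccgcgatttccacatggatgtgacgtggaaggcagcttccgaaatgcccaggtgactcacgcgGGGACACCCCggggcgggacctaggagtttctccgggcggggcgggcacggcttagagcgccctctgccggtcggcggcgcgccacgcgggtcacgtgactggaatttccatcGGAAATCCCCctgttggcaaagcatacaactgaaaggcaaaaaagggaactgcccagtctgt
*Nfkb2*, chr19:46304487-46304786, plus strand: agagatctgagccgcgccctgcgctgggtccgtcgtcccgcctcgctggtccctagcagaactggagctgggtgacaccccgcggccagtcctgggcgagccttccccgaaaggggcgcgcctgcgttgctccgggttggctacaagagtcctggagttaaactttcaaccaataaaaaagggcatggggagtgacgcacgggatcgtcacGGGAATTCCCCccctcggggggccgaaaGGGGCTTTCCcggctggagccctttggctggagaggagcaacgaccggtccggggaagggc
*Bcl3*, chr7:19822706-19823005, minus strand: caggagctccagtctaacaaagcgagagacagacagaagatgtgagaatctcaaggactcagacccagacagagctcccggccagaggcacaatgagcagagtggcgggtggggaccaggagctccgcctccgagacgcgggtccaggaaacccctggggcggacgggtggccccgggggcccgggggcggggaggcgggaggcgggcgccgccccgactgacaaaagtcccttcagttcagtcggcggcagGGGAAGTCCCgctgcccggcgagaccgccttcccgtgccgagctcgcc

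The matching stretch of *Nfkbia* began 29 bases before the start, and those of *Tnfaip3* began 125 and 12 bases before it. The *Nfkb2* stretches began 39 and 11 bases before the start, and the *Bcl3* stretch began 2 bases after it. All 3 *Nfkb2* windows held a match, but 2 of them overlap and share 1 matching stretch, the only one in the third window, so the 6 windows count that stretch 2 times. A second *Tnfaip3* window held none. No match was found in the windows of *Rela*, *Chuk* and *Ikbkg*, which says only that these letters are absent there. *Nfkb1*, *Relb* and *Ikbkb* were named without a window.

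Total counts ranged from 90127 to 598872 per sample, and the members had between 36 and 1787 raw counts in any sample. Levels below are counts scaled to the geometric mean of the 14 reference genes, and levels of different genes are not set against each other because each gene has its own probes. The choice of scaling mattered. 7 of the 14 reference genes themselves differed from Sham by over 2-fold (log2 of 1 in either direction) in WBIR and as many in RCI, and the median log2 fold change (log2FC) of all genes tested was -0.74 for WBIR, -0.53 for RCI, -0.61 for WBIR+MSC-EVs and -0.45 for RCI+MSC-EVs. Scaling by the trimmed mean of M-values (TMM), which assumes that most genes do not change, moved these medians up by 0.71, 0.54, 0.56 and 0.36. A pair of libraries stood apart from their groups for the members and are followed below, Sham replicate 2 for the kinase genes and RCI replicate 3 for subunits and regulators. These libraries were also the farthest from the rest of their groups over all genes tested. Their median absolute log2 distances were 0.694 and 0.625, and the next was 0.465 for Sham replicate 1. The cell content of the spleens moved with injury as well. B cell markers were lower than in Sham in WBIR in 7 of 7 genes tested, with a summed level of 15620 to 16800 in Sham and 624.7 to 935 in WBIR, and T cell markers in 8 of 8, with 6369 to 13560 in Sham and 1723 to 2249 in WBIR. Neutrophil markers were lower in 3 of 3, with 6957 to 38620 in Sham and 1351 to 4476 in WBIR, and macrophage markers higher in 5 of 6, with 1644 to 2685 in Sham and 9638 to 16640 in WBIR. RCI sums were 387 to 804 for B cell, 1591 to 2680 for T cell, 1003 to 1656 for neutrophil and 14120 to 35550 for macrophage markers. No marker was listed at 0 in any sample, but nor was any other gene of the panel. In bulk spleen RNA, fewer cells of a type and less RNA per cell cannot be told apart, and the part of cell content in the results was not tested.

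On the reference-gene scale nearly the whole module was lower after WBIR, while in RCI the share of members that fell was near that of all genes. By the quasi-likelihood test of edgeR, with p-values adjusted after Benjamini and Hochberg over all genes tested, 9 of 10 members fell in WBIR against Sham, where 46.9% of all genes fell and 21.6% rose. The same count, 9 of 10, fell in WBIR+MSC-EVs against Sham, with 45.1% of all genes lower and 22.8% higher. In RCI against Sham 5 of 10 fell, against 43% lower and 26.5% higher of all genes. In RCI+MSC-EVs against Sham 6 of 10 fell, against 41.3% lower and 23.9% higher. No member rose in any of these 4 comparisons, and the member that was not called in WBIR, *Bcl3*, was not called in the others either. The median log2FC of the 10 members was -1.47 for WBIR, -0.53 for RCI, -1.28 for WBIR+MSC-EVs and -0.93 for RCI+MSC-EVs. With TMM scaling the members that fell numbered 3 for WBIR (35.2% of all genes lower and 31.7% higher), 3 for RCI (35% and 35.4%), 2 for WBIR+MSC-EVs (34.5% and 31%) and 4 for RCI+MSC-EVs (35% and 32.2%), and *Bcl3* rose in RCI. On that scale the share of members that fell was thus near or below that of all genes.

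**Figure D1:**
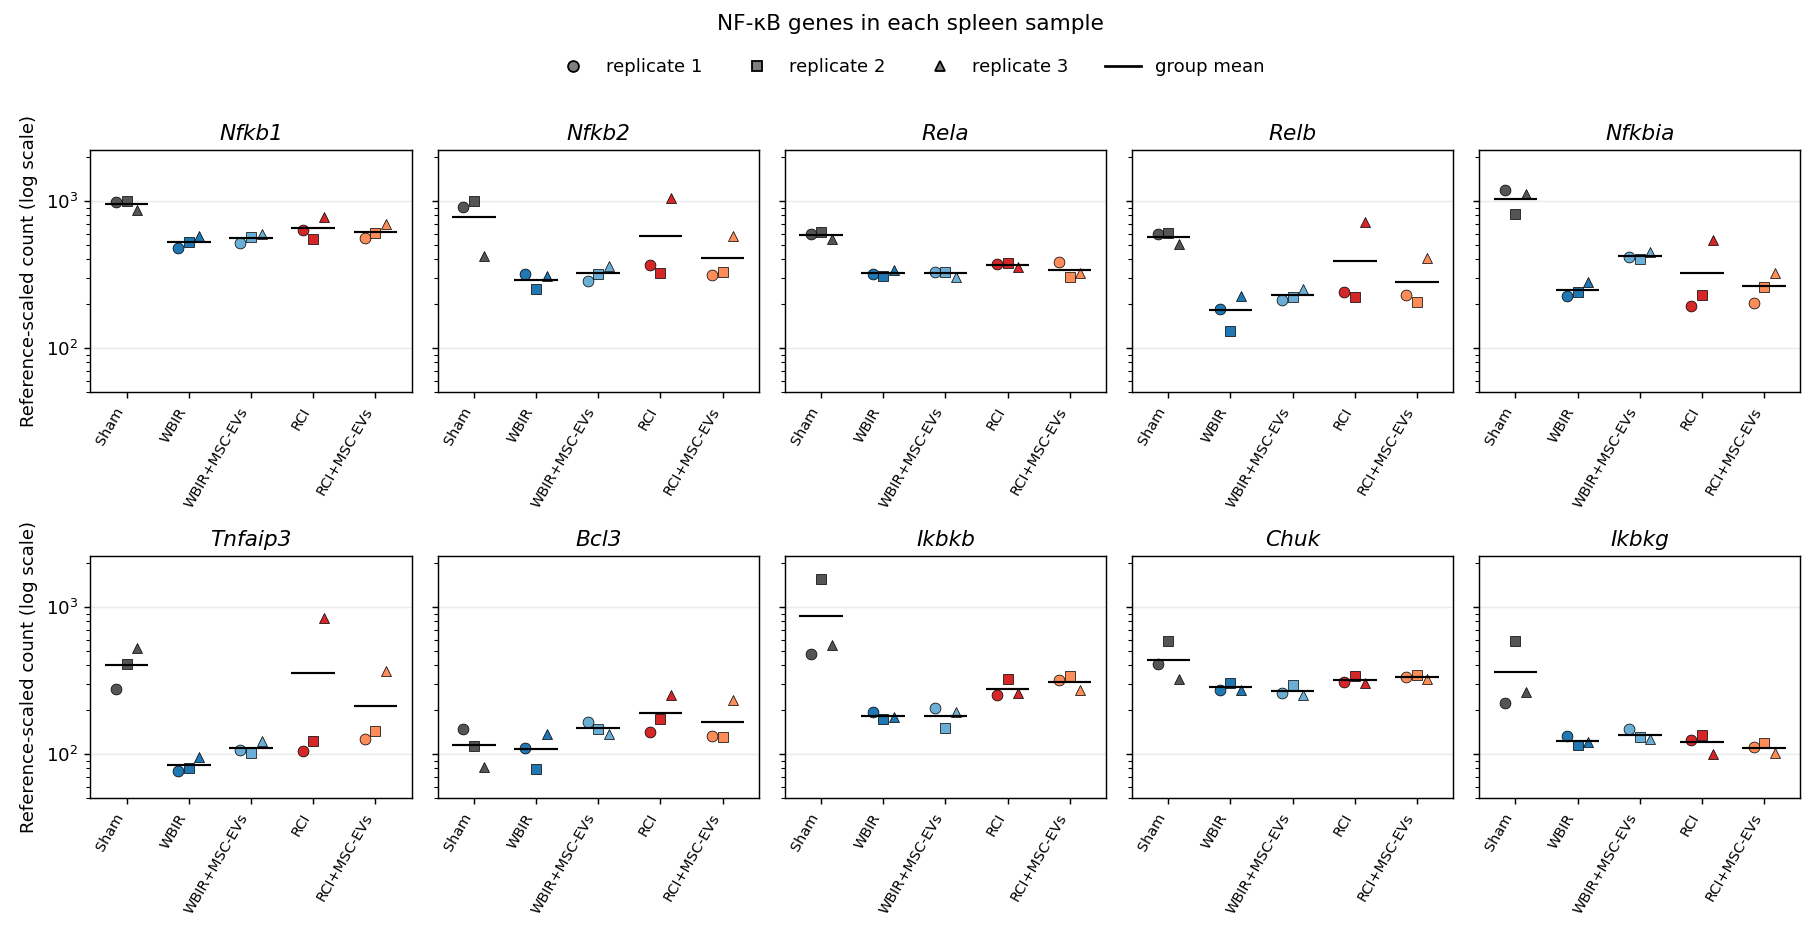
Reference-scaled counts of the 10 NF-κB genes (log axis) in each of the 15 spleen samples, with 3 samples per group, symbols for the replicate numbers and lines for the group means. *Rela* lay between 304.6 and 386 in all 12 irradiated samples and between 554 and 612 in Sham, while *Tnfaip3* reached 846 in RCI replicate 3 and stayed at 105 and 123 in the other 2 RCI samples.

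Among the subunits, *Rela*, which encodes the main transactivating partner of canonical dimers, changed most evenly. Its scaled counts were 592, 612 and 554 in Sham, 317, 309.8 and 340.4 in WBIR and 329.6, 329.6 and 306 in WBIR+MSC-EVs. They were 375, 376 and 354 in RCI, and 386, 305 and 324 in RCI+MSC-EVs. Every irradiated sample lay below every Sham sample, the 4 irradiated groups lay close together, and WBIR and RCI did not overlap, with RCI higher. That difference (log2FC 0.19 ± 0.16, adjusted p = 0.607) was near the median of all genes tested in RCI against WBIR, 0.20. *Rela* fell in WBIR (log2FC -0.86 ± 0.16, adjusted p = 0.000308) and in RCI (log2FC -0.67 ± 0.16, adjusted p = 0.0019). These decreases were near the median of all genes, and with TMM scaling they came to -0.25, adjusted p = 0.26, and -0.21, adjusted p = 0.341.

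*Nfkb1* encodes p105, the precursor of p50. Its scaled counts were 978, 992 and 872 in Sham, 481, 524 and 574 in WBIR, 631, 555 and 783 in RCI, and 558, 602 and 692 in RCI+MSC-EVs. WBIR+MSC-EVs samples had 515, 571 and 591. Sham lay above all other samples, and RCI replicate 3 was the highest of the irradiated ones. *Nfkb1* fell in WBIR (log2FC -0.85 ± 0.18, adjusted p = 0.000976) and in RCI (log2FC -0.53 ± 0.18, adjusted p = 0.0191). The RCI call was lost without RCI replicate 1 (-0.50, adjusted p = 0.0612) or RCI replicate 2 (-0.42, adjusted p = 0.0862), and neither decrease was called with TMM scaling (-0.23, adjusted p = 0.425 in WBIR and -0.03, adjusted p = 0.924 in RCI).

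The non-canonical subunits differed more between libraries. *Nfkb2*, which encodes p100, the precursor of p52, had 909, 992 and 425 in Sham, 318, 251 and 308 in WBIR and 286, 321 and 358 in WBIR+MSC-EVs. It had 364, 326 and 1041 in RCI, and 314, 329 and 579 in RCI+MSC-EVs. RCI replicate 3 was above all 3 Sham samples, while RCI replicates 1 and 2 were below them. *Nfkb2* fell in WBIR (log2FC -1.40 ± 0.43, adjusted p = 0.00953) and WBIR+MSC-EVs (log2FC -1.26 ± 0.43, adjusted p = 0.0175), while the value in RCI was log2FC -0.42 ± 0.42, adjusted p = 0.381. Without RCI replicate 3 it fell in RCI as well (-1.16, adjusted p = 0.00905). In RCI+MSC-EVs the value was -0.93, adjusted p = 0.0671, and it was called without RCI replicate 3 (-0.92, adjusted p = 0.0144), Sham replicate 3 or RCI+MSC-EVs replicate 3 (-1.27, adjusted p = 0.0344). RCI replicate 3 is not in this comparison, and leaving it out mainly changed the spread, which the fit estimates over all groups. With TMM scaling *Nfkb2* was called in none of the 4 groups (-0.75, adjusted p = 0.191 in WBIR). The WBIR+MSC-EVs call was lost without Sham replicate 2 (-1.05, adjusted p = 0.0665), Sham replicate 1 or WBIR+MSC-EVs replicate 1.

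*Relb*, which encodes the partner of p52, stood out in the same RCI library. Its scaled counts were 591, 608 and 508 in Sham, 184, 131 and 228 in WBIR and 212, 221 and 251 in WBIR+MSC-EVs. They were 240.4, 223 and 715 in RCI, and 228, 205 and 408 in RCI+MSC-EVs. All WBIR samples were below Sham, and RCI replicate 3 was again above Sham. *Relb* fell in WBIR (log2FC -1.65 ± 0.41, adjusted p = 0.00257), and the value in RCI was log2FC -0.53 ± 0.40, adjusted p = 0.249. Without RCI replicate 3 it fell in RCI (-1.29, adjusted p = 0.00194), and with TMM scaling it was called in none of the groups (-1.04, adjusted p = 0.0754 in WBIR). Its decrease in RCI+MSC-EVs (log2FC -1.02 ± 0.40, adjusted p = 0.0385) was lost without Sham replicate 1 or 2 or without RCI+MSC-EVs replicate 1 or 2 (-0.97, adjusted p = 0.0802 without Sham replicate 2).

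*Nfkbia*, which encodes IκBα, the inhibitor that returns canonical dimers to the cytoplasm, showed the clearest separation between Sham and the irradiated groups among the feedback regulators. Scaled counts were 1184, 808 and 1113 in Sham, 225, 240.0 and 282 in WBIR and 418, 403 and 451 in WBIR+MSC-EVs. They were 192, 230.1 and 543 in RCI, and 203, 259 and 325 in RCI+MSC-EVs. No irradiated sample reached Sham, all 3 WBIR+MSC-EVs samples were above all 3 WBIR samples, and RCI replicate 3 was the highest irradiated sample. The group means ran from 1035 ± 199.5 (SD, n = 3) in Sham through 424 ± 24.4 for WBIR+MSC-EVs, 322 ± 192 for RCI and 262 ± 60.7 for RCI+MSC-EVs to 249 ± 29.6 for WBIR, and of the neighbours in this order only Sham and WBIR+MSC-EVs did not overlap.

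*Nfkbia* fell in WBIR (log2FC -2.06 ± 0.34, adjusted p = 0.000115) and RCI (log2FC -1.68 ± 0.33, adjusted p = 0.000493). It also fell in the treated groups, WBIR+MSC-EVs (log2FC -1.29 ± 0.33, adjusted p = 0.00344) and RCI+MSC-EVs (log2FC -1.98 ± 0.34, adjusted p = 0.000167). Without RCI replicate 3 the RCI value became -2.30, adjusted p = 5.12e-06. With TMM scaling the decrease was called in WBIR (-1.49, adjusted p = 0.00917), RCI (-1.17, adjusted p = 0.0287) and RCI+MSC-EVs (-1.72, adjusted p = 0.00398), but not in WBIR+MSC-EVs (-0.83, adjusted p = 0.112).

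*Tnfaip3* encodes A20, a ubiquitin-editing enzyme that ends NF-κB signalling. Scaled counts were 278, 407 and 524 in Sham, 77.2, 79.99 and 95.2 in WBIR and 106, 101 and 124 in WBIR+MSC-EVs. They were 105, 124 and 846 in RCI, and 127, 142 and 364 in RCI+MSC-EVs. The 6 samples of both WBIR groups lay below Sham, as did RCI replicates 1 and 2, whereas RCI replicate 3 exceeded every Sham sample and RCI+MSC-EVs replicate 3 lay within the Sham range. *Tnfaip3* fell in WBIR (log2FC -2.26 ± 0.67, adjusted p = 0.00813) and in WBIR+MSC-EVs (log2FC -1.87 ± 0.67, adjusted p = 0.0224). The latter call was lost without Sham replicate 3 or without WBIR+MSC-EVs replicate 1 or 2, and neither was called with TMM scaling (-1.65, adjusted p = 0.0682 and -1.36, adjusted p = 0.125). In RCI the value was log2FC -0.16 ± 0.63, adjusted p = 0.83, turning to -1.82, adjusted p = 0.00191, without RCI replicate 3. It was -0.93, adjusted p = 0.21 in RCI+MSC-EVs, and there the same omission gave -0.93, adjusted p = 0.0314. That library is not in this comparison, and leaving it out changed the spread estimated over all groups.

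*Bcl3*, an atypical IκB protein that works in the nucleus as a partner of p50 and p52 dimers, was the member called lower in none of the 4 groups. Scaled counts were 149, 113 and 82.2 in Sham, 111, 79.0 and 137 in WBIR and 165, 148 and 138 in WBIR+MSC-EVs. They were 141, 173 and 254 in RCI, and 134, 129.9 and 233 in RCI+MSC-EVs. Sham overlapped every irradiated group, and the highest values were again in replicate 3 of the RCI groups. Values were log2FC -0.07 ± 0.32, adjusted p = 0.851 in WBIR and log2FC 0.72 ± 0.32, adjusted p = 0.059 in RCI. The RCI value passed the threshold without Sham replicate 1, RCI replicate 1 (0.90, adjusted p = 0.0359) or RCI+MSC-EVs replicate 3 (0.72, adjusted p = 0.0455), and with TMM scaling (1.22, adjusted p = 0.012). RCI+MSC-EVs replicate 3 is not in this comparison, and leaving it out changed the spread estimated over all groups. TMM scaling turned the WBIR value to 0.52, adjusted p = 0.255.

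The 3 IκB kinase genes fell to different extents. *Ikbkb* encodes IKKβ, the catalytic subunit that phosphorylates IκB in the canonical route. Its scaled counts were 482, 1556 and 549 in Sham, 194, 174 and 179 in WBIR and 206, 150.5 and 192 in WBIR+MSC-EVs. They were 254, 321 and 259 in RCI, and 317, 339 and 271 in RCI+MSC-EVs. Every irradiated sample lay below Sham, every RCI sample lay above every WBIR sample, and Sham replicate 2 was far above the other 2 Sham samples. The raw counts of the Sham samples were 582, 635 and 715, and their scale factors 1.21, 0.41 and 1.30. Sham replicate 2 was thus a shallow library, whose high level came with its small scale factor. *Ikbkb* fell in WBIR (log2FC -2.23 ± 0.37, adjusted p = 0.000106) and in RCI (log2FC -1.63 ± 0.36, adjusted p = 0.00102). Without Sham replicate 2 these came to -1.50, adjusted p = 1.95e-05, and -0.89, adjusted p = 0.000989, and in the MSC-EV groups to -1.50 and -0.74 from -2.24 and -1.47. It fell in all 4 comparisons with TMM scaling too, by 1.01 to 1.56 on the log2 scale.

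*Ikbkg* encodes NEMO, the regulatory subunit needed for canonical signalling. Its scaled counts were 222, 590.4 and 265 in Sham, 132, 115 and 121 in WBIR and 124, 135 and 101 in RCI. All 12 irradiated samples lay between 101 and 147, below all Sham samples. *Ikbkg* fell in WBIR (log2FC -1.53 ± 0.31, adjusted p = 0.000565) and in RCI (log2FC -1.57 ± 0.31, adjusted p = 0.00047), and without Sham replicate 2 by less (-0.98, adjusted p = 0.000473 and -1.02, adjusted p = 0.000358). TMM scaling kept it called in all 4 comparisons with Sham.

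*Chuk* encodes IKKα, the kinase of the non-canonical route. Its scaled counts were 407, 586 and 323 in Sham, 274, 306 and 275 in WBIR and 262, 296 and 251 in WBIR+MSC-EVs. They were 308, 339 and 305 in RCI, and 333, 342 and 325 in RCI+MSC-EVs. Both WBIR groups lay below Sham, while both RCI groups overlapped it. *Chuk* fell in WBIR (log2FC -0.62 ± 0.21, adjusted p = 0.0166) and WBIR+MSC-EVs (log2FC -0.69 ± 0.21, adjusted p = 0.00904), and in RCI the value was log2FC -0.46 ± 0.21, adjusted p = 0.0605. The WBIR call was lost without Sham replicate 2 (-0.36, adjusted p = 0.0625) or WBIR replicate 3, and with TMM scaling, which turned its sign (0.06, adjusted p = 0.776). Without Sham replicate 3, *Chuk* was called lower in both RCI groups.

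**Figure D2:**
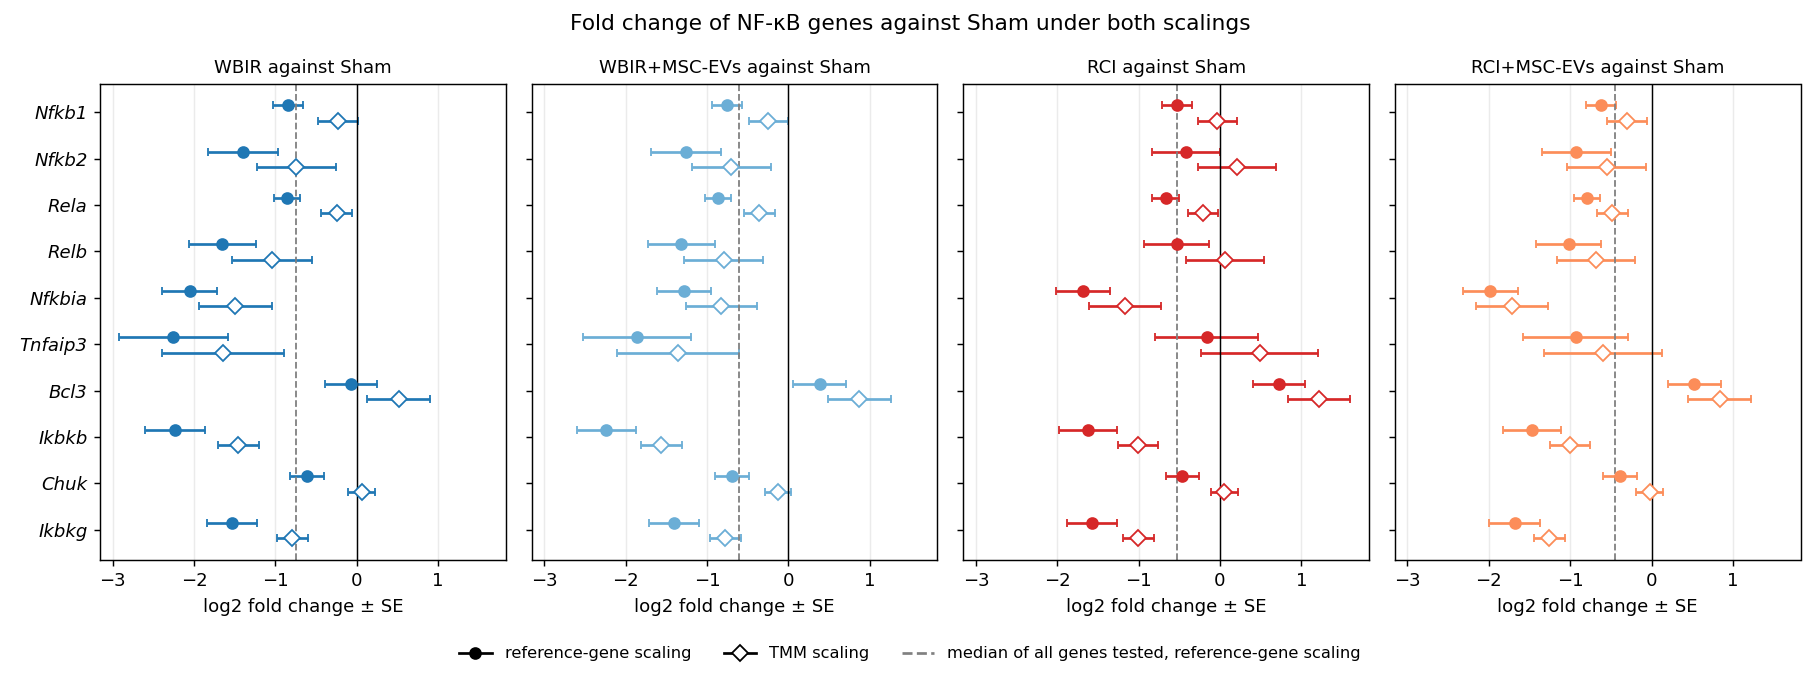
log2 fold changes of the 10 NF-κB genes against Sham with SE in the 4 irradiated groups (3 samples each), by reference-gene scaling (filled circles) and by TMM scaling (open diamonds), with the median of all genes tested as a dashed line. *Ikbkb* and *Ikbkg* were called lower under both scalings in all 4 comparisons, while *Chuk* in WBIR moved from -0.62 to 0.06.

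Ratios of a pair of genes within a sample do not depend on the scaling, and 4 of them were compared between the 12 irradiated samples and the 3 Sham samples by two-sided exact permutation tests over 455 assignments (smallest possible p = 0.0044), adjusted over the 4. *Chuk* over *Ikbkb* was higher after irradiation, with a mean log2 ratio of 0.38 ± 0.30 (SD) against -0.81 ± 0.58 in Sham, a difference of 1.19 (exact permutation p = 0.0044, adjusted p = 0.0176). All 12 irradiated samples lay above all 3 Sham samples, and within the irradiated groups the WBIR samples (0.50 to 0.81) lay above the RCI samples (0.08 to 0.28). *Nfkbia* over *Rela* was lower, at -0.18 ± 0.55 against 0.80 ± 0.35, a difference of -0.98 (exact permutation p = 0.0132, adjusted p = 0.0264), with 10 of 12 irradiated samples below Sham. With 2 Sham samples, which allow fewer assignments, both calls were kept without Sham replicate 2 (*Chuk* over *Ikbkb* 0.89 and *Nfkbia* over *Rela* -1.18, adjusted exact permutation p = 0.044 for each). They were lost without Sham replicate 1 (1.47, adjusted exact permutation p = 0.0879, and -0.88, adjusted p = 0.132) and without Sham replicate 3 (1.21, adjusted exact permutation p = 0.0879, and -0.88, adjusted p = 0.117). With fewer assignments the smallest possible p is larger than 0.0044, so a lost call alone does not show a smaller difference.

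*Nfkbia* over *Rela* ran from -0.49 to -0.27 in WBIR and from 0.29 to 0.56 in WBIR+MSC-EVs, so these groups did not overlap, and from -0.97 to 0.62 in RCI. *Relb* over *Rela* gave a difference of -0.41 (exact permutation p = 0.255, adjusted p = 0.308). Of the irradiated samples 10 were below all Sham samples and 2 were above, the latter being replicate 3 of RCI at 1.01 and replicate 3 of RCI+MSC-EVs at 0.33. *Nfkb2* over *Nfkb1* gave -0.29 (exact permutation p = 0.308, adjusted p = 0.308), with the Sham samples spread from -1.04 to 0.00.

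**Figure D3:**
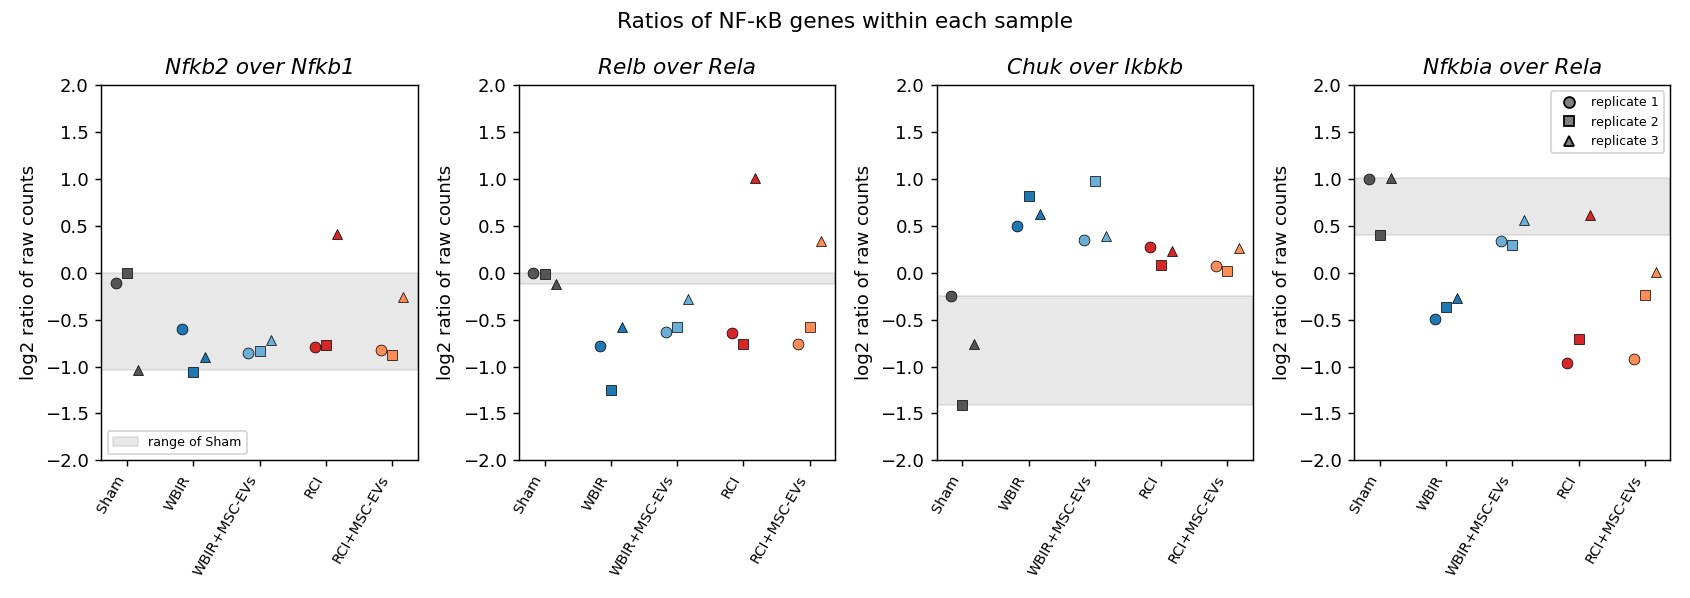
log2 ratios of raw counts of 4 gene pairs in each of the 15 samples, by group and replicate number, with the range of the 3 Sham samples shaded. *Chuk* over *Ikbkb* lay above the Sham range in all 12 irradiated samples, and *Nfkbia* over *Rela* below it in 10 of 12.

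The burn added to irradiation, together with the anaesthesia, morphine and fluid described for it, was examined by RCI against WBIR. No member was called, compared with 0.704% of all genes, and the smallest adjusted p of a member was 0.126. At an unadjusted p under 0.05, 4 members were higher in RCI and none lower, against 16.7% of all genes in either direction. These were *Tnfaip3* (log2FC 2.09 ± 0.67, adjusted p = 0.126), *Relb* (log2FC 1.12 ± 0.41, adjusted p = 0.172), *Nfkb2* (log2FC 0.98 ± 0.43, adjusted p = 0.259) and *Bcl3* (log2FC 0.80 ± 0.32, adjusted p = 0.235). Groups did not overlap for *Nfkb2*, *Rela*, *Tnfaip3*, *Bcl3* and *Ikbkb*, 5 of 10 members against 27% of all genes in either direction. Each of these members was higher in RCI. The median log2FC of all genes tested was itself 0.20 in this comparison (0.02 with TMM scaling), and that of *Rela* was 0.19. Of the members DESeq2 called *Tnfaip3* alone (2.09, adjusted p = 0.0232), where it called 6.81% of all genes, as did edgeR without RCI replicate 1 (2.53, adjusted p = 0.041, with 3.52% of all genes called).

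These differences moved with 1 library. Without RCI replicate 3 the RCI against WBIR values were 0.44 for *Tnfaip3*, 0.36 for *Relb*, 0.24 for *Nfkb2* and 0.52 for *Bcl3*. That of *Nfkbia* turned from 0.37 to -0.24, whereas *Ikbkb* kept its value (0.61 with all samples and 0.66 without). The members in RCI against Sham that fell numbered 8 rather than 5 without it, with *Nfkb2*, *Relb* and *Tnfaip3* added (42% of all genes fell), and those in RCI+MSC-EVs against Sham 8 rather than 6 (44.1% of all genes). RCI replicate 3 is not in the latter comparison, so there its omission acted through the spread estimated over all groups.

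RCI replicate 3 was above the mean of the other 2 RCI samples for 6 members and below it for the other 4. Over all genes tested its median absolute log2 distance from that mean was 0.625, which *Nfkb1* and the 4 lower members did not reach. RCI replicate 3 was higher by 2.88 on the log2 scale for *Tnfaip3*, 1.62 for *Relb*, 1.59 for *Nfkb2*, 1.36 for *Nfkbia*, 0.70 for *Bcl3* and 0.40 for *Nfkb1*. *Rela*, *Chuk*, *Ikbkb* and *Ikbkg* lay between -0.36 and -0.08. RCI+MSC-EVs replicate 3 had higher values of the same 6 genes than the rest of its group, by 1.43 for *Tnfaip3*, 0.91 for *Relb*, 0.85 for *Nfkb2*, 0.82 for *Bcl3*, 0.50 for *Nfkbia* and 0.26 for *Nfkb1*. The summed macrophage markers were 35550 in RCI replicate 3 and 14120 and 15340 in replicates 1 and 2, with T cell sums of 1591, 2614 and 2680 and B cell sums of 387, 774 and 804. In RCI+MSC-EVs the macrophage sums were 15390, 16110 and 17980 in replicates 1 to 3. The part of these cell markers in the split was not tested.

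**Figure D4:**
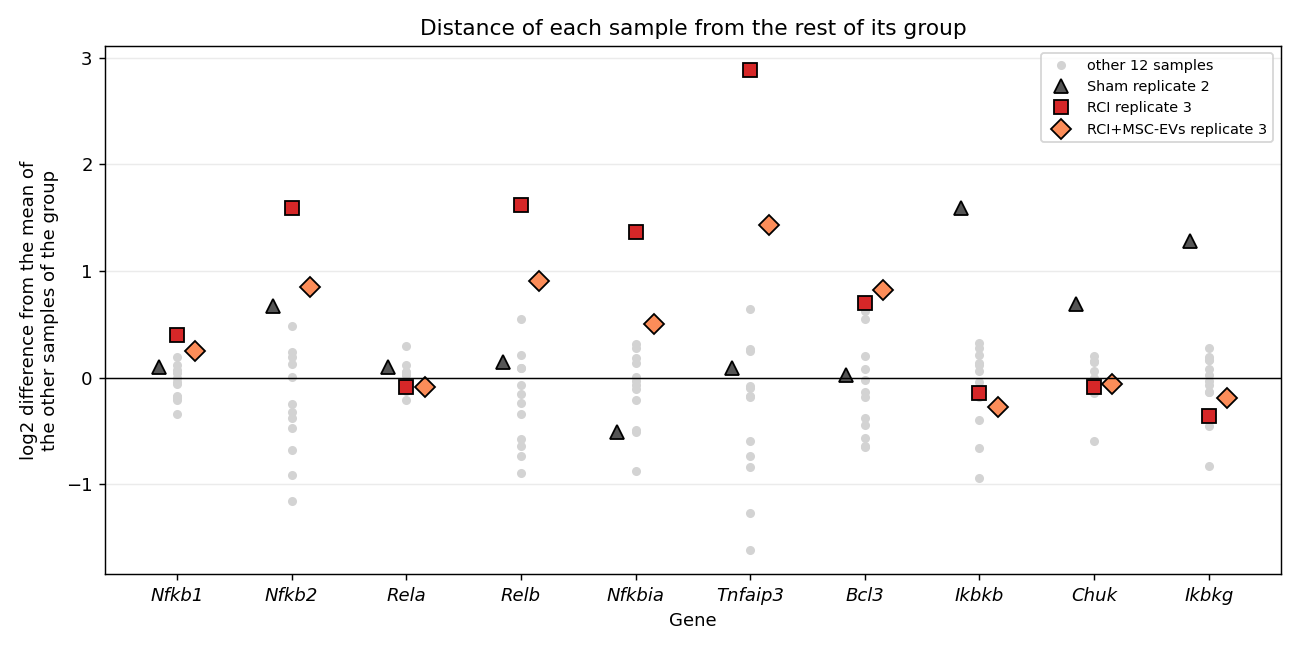
log2 difference of each sample from the mean of the other 2 samples of its group for the 10 NF-κB genes, with Sham replicate 2, RCI replicate 3 and RCI+MSC-EVs replicate 3 marked and the other 12 samples in grey. RCI replicate 3 stood highest for *Tnfaip3* at 2.88, and Sham replicate 2 for *Ikbkb* at 1.60.

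MSC-EV treatment was compared with no treatment within each injury. No member was called in WBIR+MSC-EVs against WBIR or in RCI+MSC-EVs against RCI, nor for the effect averaged over both injuries or the difference between the effects, and 0% of all genes were called in each. At an unadjusted p under 0.05 the first comparison held 1 member (2.58% of all genes), the second 0 members (3.29%), the average 0 members (3.29%) and the difference 1 member (2.58%). That member was *Nfkbia* both times. DESeq2 called no member in these comparisons either, nor did a fit with the replicate number as a block within each injury.

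*Nfkbia* was at 424 ± 24.4 in WBIR+MSC-EVs and 249 ± 29.6 (SD, n = 3) in WBIR (log2FC 0.77 ± 0.33, adjusted p = 0.997, unadjusted p = 0.0366 by edgeR), with 3 of 3 treated samples above all untreated ones. Groups without overlap were also found for *Tnfaip3* and *Bcl3* in this comparison. Thus 3 of 10 members were separated, each higher with MSC-EVs, against 8.92% of all genes in either direction. The values of *Tnfaip3* and *Bcl3* were log2FC 0.39 ± 0.66, adjusted p = 0.997 and log2FC 0.46 ± 0.32, adjusted p = 0.997. *Relb* (0.34) and *Nfkb2* (0.14) overlapped, and the other 5 members lay between -0.08 and 0.12.

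In RCI+MSC-EVs against RCI no member's groups were separated, against 10.8% of all genes. Values were log2FC -0.30 ± 0.33, adjusted p = 0.989 for *Nfkbia* and log2FC -0.77 ± 0.64, adjusted p = 0.989 for *Tnfaip3*. They were -0.49 for *Relb*, -0.51 for *Nfkb2* and -0.20 for *Bcl3*. All 5 changed sign without RCI replicate 3, to 0.31 for *Nfkbia*, 0.89 for *Tnfaip3*, 0.27 for *Relb*, 0.24 for *Nfkb2* and 0.08 for *Bcl3*, none of them called. The difference between the effects in RCI and WBIR was log2FC -1.07 ± 0.47, adjusted p = 0.998 for *Nfkbia* (unadjusted p = 0.0385 by edgeR), and -0.45 without RCI replicate 3.

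**Figure D5:**
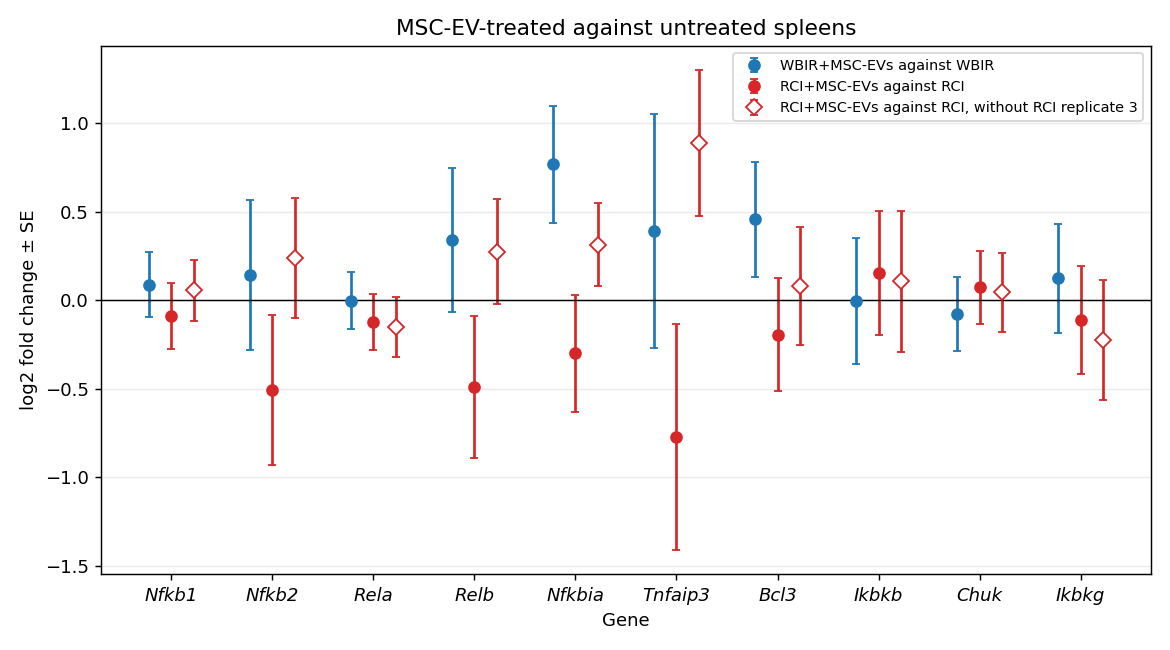
log2 fold changes of the 10 NF-κB genes in MSC-EV-treated against untreated samples of the same injury, with SE, 3 against 3 samples, and for RCI also without RCI replicate 3 (open diamonds). *Nfkbia* in WBIR lay at 0.77, and *Tnfaip3* in RCI moved from -0.77 to 0.89 when RCI replicate 3 was left out.

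Other genes of the pathway were read from 4 lists. Of all genes tested, 21.6% rose and 46.9% fell in WBIR against Sham, and 26.5% rose and 43% fell in RCI. With TMM scaling these shares were 31.7% and 35.2% in WBIR, and 35.4% and 35% in RCI. Of 11 upstream adaptors and kinases tested, 1 rose and 7 fell in WBIR against Sham, and 1 rose and 6 fell in RCI. With TMM scaling 2 rose and 4 fell in each. The median log2FC of the list was -1.04 in WBIR beside -0.74 over all genes. *Myd88*, the adaptor of Toll-like and IL-1 receptors, rose from 233 ± 34.9 in Sham to 419 ± 25.5 in WBIR (log2FC 0.85 ± 0.18, adjusted p = 0.000764) and 608 ± 53.4 in RCI. *Irak2*, a kinase of the same receptors, fell (log2FC -1.99 ± 0.25, adjusted p = 9.9e-06), as did *Ikbke*, which encodes an IκB kinase relative (log2FC -1.85 ± 0.41, adjusted p = 0.001), although *Ikbke* was not called in RCI (log2FC -0.67 ± 0.39, adjusted p = 0.139). The Sham level of *Ikbke* was widely spread, at 763.5 ± 421.3 (SD), so the size of its decrease is uncertain.

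Of 4 other family members and inhibitors, 3 fell in WBIR and 1 in RCI, and with TMM scaling 2 and 1 fell. The list medians were -1.42 and -0.34, beside -0.74 and -0.53 over all genes. *Sigirr*, an inhibitory receptor of the IL-1 family, fell in WBIR (log2FC -3.38 ± 0.35, adjusted p = 1.7e-06) and in RCI (-2.85). *Nfkbiz*, another atypical IκB protein, fell in WBIR (log2FC -1.97 ± 0.45, adjusted p = 0.00148) and had log2FC -0.50 ± 0.43, adjusted p = 0.307 in RCI. The decrease of *Nfkbiz* in WBIR+MSC-EVs was not called with TMM scaling, which otherwise kept each call against Sham of the 13 genes named from the 4 lists.

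Of 11 ligands, receptors and kinases of the non-canonical route, 3 rose and 7 fell in WBIR, and 3 rose and 6 fell in RCI. With TMM scaling 3 rose and 6 fell in each. *Ltbr*, the lymphotoxin β receptor, rose from 45.0 ± 17.9 in Sham to 190.3 ± 55.6 in WBIR (log2FC 2.13 ± 0.31, adjusted p = 3.89e-05) and 378 ± 29.9 in RCI (log2FC 3.12 ± 0.32, adjusted p = 1.71e-06). *Tnfrsf11a*, which encodes the receptor RANK, rose in WBIR (1.56). *Tnfrsf13c*, which encodes the B cell receptor for BAFF, fell (-4.62), as did *Cd40* (-3.31), a costimulatory receptor of B cells and antigen-presenting cells. Raw counts in WBIR were only 10 to 24 for *Tnfrsf13c* and 16 to 25 for *Cd40*. No background was subtracted, so the sizes of both decreases are uncertain. The 7 B cell markers had a median log2FC of -4.71 in the same comparison, and their part in these decreases was not tested.

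Of 23 target genes in the panel, 14 had enough counts to be tested. Of these 14, 3 rose and 3 fell in WBIR, and 5 rose and 4 fell in RCI. The list medians were 0.16 and 1.35, beside -0.74 and -0.53 over all genes. They were 0.34 in WBIR+MSC-EVs and 0.25 in RCI+MSC-EVs, beside -0.61 and -0.45. The part of RCI replicate 3 in the RCI median was not tested. With TMM scaling 5 rose and 3 fell in WBIR, and 8 rose and 4 fell in RCI. *Il1a*, an alarmin cytokine, rose from 24.1 ± 12.2 in Sham to 115 ± 20.6 in WBIR (log2FC 2.26 ± 0.80, adjusted p = 0.0218) and had 669.6 ± 836 in RCI. Its raw counts were only 11 to 45 in Sham and ran from 171 to 2805 in RCI. *Cd80*, a costimulatory ligand, rose in WBIR (1.42). *Bcl2*, a survival gene, and *Traf1*, a signalling adaptor, fell (-2.22 and -2.17). Their Sham levels were widely spread, at 1761 ± 1301 and 330.3 ± 209.5 (SD), so the sizes of both decreases are uncertain. In the MSC-EV comparisons and in RCI against WBIR, no gene of the 4 lists was called in either direction.

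Across the 12 irradiated samples, *Nfkb2*, *Relb* and *Tnfaip3* varied together. As a description, Pearson's r of log2 scaled counts was 0.970 for *Nfkb2* with *Relb*, 0.966 for *Nfkb2* with *Tnfaip3* and 0.949 for *Relb* with *Tnfaip3*, and 0.922, 0.892 and 0.854 over the 11 samples without RCI replicate 3. *Ikbkg* ran the other way from *Nfkb1* (r = -0.747, and -0.629 without RCI replicate 3) and *Tnfaip3* (r = -0.725, and -0.614 without it). *Nfkbia* was less alike to *Nfkb2* (r = 0.531, and 0.134 without RCI replicate 3). These samples share scaling factors and group differences. Among tested genes that are no members, the most alike was *Irak3* for *Tnfaip3* (r = 0.971), *Il1a* for both *Nfkb2* (0.966) and *Relb* (0.936), *Jak2* for *Ikbkb* (0.963), *Tlr1* for *Nfkb1* (0.942), *Bax* for *Chuk* (0.888), *Ncf4* for *Bcl3* (0.877), *Fn1* for *Rela* (0.803) and *Marco* for *Nfkbia* (0.777). With TMM scaling the value of *Rela* with *Fn1* dropped to 0.321, and the others given were between 0.798 and 0.973. Without RCI replicate 3 *Tnfaip3* with *Irak3* came to 0.928, and *Nfkb2* and *Relb* with *Il1a* to 0.868 and 0.814. *Nfkbia* with *Marco* came to 0.706, and the others given were between 0.795 and 0.963.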

How the data were processed

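Per the labels and the study's methods, the authors lysed red blood cells of spleen suspensions, isolated RNA, hybridized it to the panel and counted barcodes, then normalized with nSolver. The deposited table holds raw barcode counts per gene before that step, as read from its whole numbers and unequal totals. It lists 561 genes, of which 14 are reference genes and 547 endogenous. The smallest value was 1, and control probes were not used here, so no background was subtracted.

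Counts were scaled to the geometric mean of the reference genes, with factors of geometric mean 1. Of the endogenous genes, those averaging 20 counts or more over all samples were tested (426, with 121 removed) by edgeR 4.0.16 in R 4.3.3 (robust glmQLFit and glmQLFTest, 1 coefficient per group, all 15 samples, two-sided), with Benjamini-Hochberg adjustment within each comparison and calls at an adjusted p under 0.05. SE was the absolute log2FC over the square root of F. Replicates varied by 33.1% beyond counting error (common dispersion 0.11). Totals were 90127 to 598872 counts per sample, and the 3 samples a group limit the precision. DESeq2 1.42.0, TMM and median-of-ratios scaling, no filter, a replicate block and leaving out each sample were alternatives. Permutation tests used scipy 1.17.1. Scripts were tested on simulated data.

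The members and gene lists were chosen with earlier results of these data known. All members were named, as were from each list up to 2 called genes with the largest rise and 2 with the largest fall in WBIR against Sham, and for each member its most correlated non-member, of which that of *Ikbkg* is not reported here. Same-numbered samples deviated together between treated and untreated samples of an injury (r of 0.68, 0.39 and 0.24 in WBIR and 0.26, 0.33 and 0.52 in RCI), whereas over all group pairs 10 of 21 same-numbered pairs had r over 0.1. A cartridge effect was not analysed here.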

Additional observations from a re-analysis of the deposited data

How the results depend on the processing

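The comparisons with Sham depended on scaling. With TMM scaling 3 members were called in WBIR and 2 in WBIR+MSC-EVs, and with median-of-ratios scaling likewise 3 and 2, where reference genes gave 9 and 9. Of all genes, TMM scaling called 35.2% lower in WBIR and 34.5% in WBIR+MSC-EVs, median-of-ratios scaling 35.7% and 34%, and reference genes 46.9% and 45.1%. These scalings turned the sign of values that were not called: *Bcl3* in WBIR (0.52 and 0.51) and, in RCI, *Nfkb2* (0.21 and 0.22), *Relb* (0.058 and 0.079), *Tnfaip3* (0.49 and 0.52) and *Chuk* (0.055 and 0.068). *Chuk* in WBIR, a call by reference genes, also turned (0.057 and 0.062).

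Leaving out single samples gave 4 to 8 members called in RCI against Sham, with 8 without RCI replicate 3, and 0 to 1 in RCI against WBIR. DESeq2 called 1 member there, *Tnfaip3*, and 6.81% of all genes. Over these omissions *Bcl3* in WBIR against Sham ran from -0.28 to 0.18 and *Tnfaip3* in RCI against Sham from -1.82 to 0.27. In RCI+MSC-EVs against RCI the ranges were -0.57 to 0.31 for *Nfkbia*, -1.42 to 0.89 for *Tnfaip3*, -0.52 to 0.080 for *Bcl3*, -0.85 to 0.24 for *Nfkb2* and -0.86 to 0.27 for *Relb*. *Nfkbia* in RCI against WBIR ran from -0.24 to 0.64. The ratio differences ran from 0.89 to 1.47 for *Chuk* over *Ikbkb* and from -1.18 to -0.88 for *Nfkbia* over *Rela*.

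With the replicate number as a block over all groups, 9 members were called against Sham in each of both WBIR groups, 5 in RCI without treatment and 7 with MSC-EVs. The replicate number as a block within each injury, and leaving out RCI replicate 3 and Sham replicate 2 together, were chosen after seeing the data. The former block, which bears only on treated against untreated samples, changed no call. Leaving out both libraries gave 8 members called in RCI against Sham, and both ratio calls were lost, with values of 0.90 for *Chuk* over *Ikbkb* and -1.25 for *Nfkbia* over *Rela* (adjusted exact permutation p = 0.0513 each). With 2 Sham samples fewer assignments are possible and the smallest possible p is larger, so these lost calls alone do not show smaller differences. The cause of the other changes was not tested. With 3 samples a group, a value that was not called does not show equal levels.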
